A study of Mus musculus with 12 samples.

Results

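The response of the mouse kidney to ischemia-reperfusion (IR) was measured in kidneys labelled Tet2-/-, by comparing 3 IR libraries with 3 baseline libraries, which are 6 of the 12 RNA-seq libraries of the study. All are whole kidneys of male mice at 6 weeks of age, labelled C57BL/6 and given a C57BL/6J background in the study's methods, and Tet2-/- marks a knockout carried by the whole animal, not by 1 cell type. Baseline mice are labelled healthy controls and had no operation. In IR mice the vessels of the right kidney were clamped for 60 min, the left kidney was removed, and the right kidney was taken 24 h later. Both groups carry the same genotype label, so the comparison holds the label constant and changes the whole operation: anaesthesia, surgery, ischemia, reperfusion and loss of the other kidney. The other 6 libraries, 3 baseline and 3 IR kidneys labelled WT, are used only where the IR effect of the 2 genotypes is set side by side. Of 24421 gene symbols in the deposited files, 16359 passed edgeR's filter on low counts in the 6 libraries and were tested.

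The kidney reabsorbs most of its filtrate in the proximal tubule, whose cells run on mitochondrial fatty acid oxidation and carry a dense brush border of transporters and peptidases. This segment is the most sensitive to loss of blood flow. After IR, surviving tubule cells are known to lose differentiated functions, to express keratins, KIM-1 (*Havcr1*) and NGAL (*Lcn2*), and to release cytokines that draw in neutrophils and monocytes. *Tet2* encodes a dioxygenase that oxidizes 5-methylcytosine, the first step of active DNA demethylation.

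Calls needed an adjusted p under 0.05 in edgeR's quasi-likelihood test, corrected by Benjamini-Hochberg over all genes tested, plus a change of over 1 on the log2 scale in either direction. Log2 fold changes are those fitted by edgeR after TMM normalization, which scales the libraries so that most genes sit near 0, while levels are given in FPKM, which is scaled by the total count and by transcript length. The median log2 fold change of all genes was 0.04 with TMM and 0.27 with library sizes alone, a shift of 0.23, so ratios of FPKM lie a little above the fitted values. The values of 3 libraries are given in the order of replicates 1, 2 and 3.

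*Tet2* itself was read first, as a check of the label. Its level was 9.24, 16.6 and 10.3 FPKM in the baseline libraries and 2.64, 3.2 and 1.76 FPKM after IR. The groups did not overlap, with a log2 fold change of −2.52 ± 0.27 (SE, adjusted p = 0.000519, edgeR). The baseline mean of 12.1 FPKM was not below that of the kidneys labelled WT, at 7.58 FPKM, so the baseline transcript level does not show the knockout. After IR the mean was 2.53 FPKM, against 5.72 FPKM in WT. Since the 2 comparisons go opposite ways, the libraries are called by their label throughout. *Tet3*, which encodes another enzyme of the family, was at 1.77, 1.78 and 1.74 FPKM at baseline and 2.69, 2.67 and 2.58 FPKM after IR, a log2 fold change of 0.33 that was not called. *Tet1* stayed under 0.2 FPKM in each of the 6 libraries and was not called (log2 fold change −0.28, adjusted p = 0.555, edgeR). *Tet2* was the member of its family that fell, and it fell in each IR library. Of 18 genes of DNA methylation and demethylation, 3 were called higher and 2 lower, near the shares over all genes tested, 12.7% and 11.6%. *Uhrf1*, which brings the maintenance methyltransferase to replicating DNA, had 0.327, 0.438 and 0.47 FPKM at baseline and 2.83, 14.1 and 4.67 FPKM after IR (log2 fold change 3.82, adjusted p = 0.00173, edgeR). *Dnmt1*, that methyltransferase, had 2.58, 2.45 and 2.46 FPKM before and 8.35, 11.7 and 7.39 FPKM after IR (log2 fold change 1.6, adjusted p = 0.000288, edgeR). Both were higher in each IR library than in any baseline library, *Uhrf1* most in IR replicate 2. *Idh2*, the mitochondrial isocitrate dehydrogenase, whose product 2-oxoglutarate the TET enzymes use, fell from 228 to 106 FPKM (log2 fold change −1.36, adjusted p = 0.000667, edgeR). The third gene called higher was *Dnmt3l*, a cofactor of the de novo methyltransferases, with a log2 fold change of 2.7 and a level of only 0.179 FPKM after IR. It was not called without baseline replicate 2 or 3.

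After IR, 2078 genes were higher and 1896 were lower, 12.7% and 11.6% of the 16359 tested. These are the shares against which the count of each gene list is to be read. Of these genes, 815 higher and 723 lower genes changed by over 4-fold, and 201 and 115 by over 16-fold. The libraries of the 2 groups did not overlap in TMM-scaled counts for 2025 of the 2078 higher and 1890 of the 1896 lower genes, against 9290 of all genes tested (56.8%). Among the 623 genes at 100 FPKM or more at baseline, 2.41% were higher and 40.8% lower, with a median log2 fold change of −0.86, although baseline values both formed this group and enter the change. The share of called genes that were higher was 52.3% with TMM and 67.2% with library sizes alone (2860 higher, 1397 lower). With DESeq2 it was 51.4%.

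**Figure D1:**
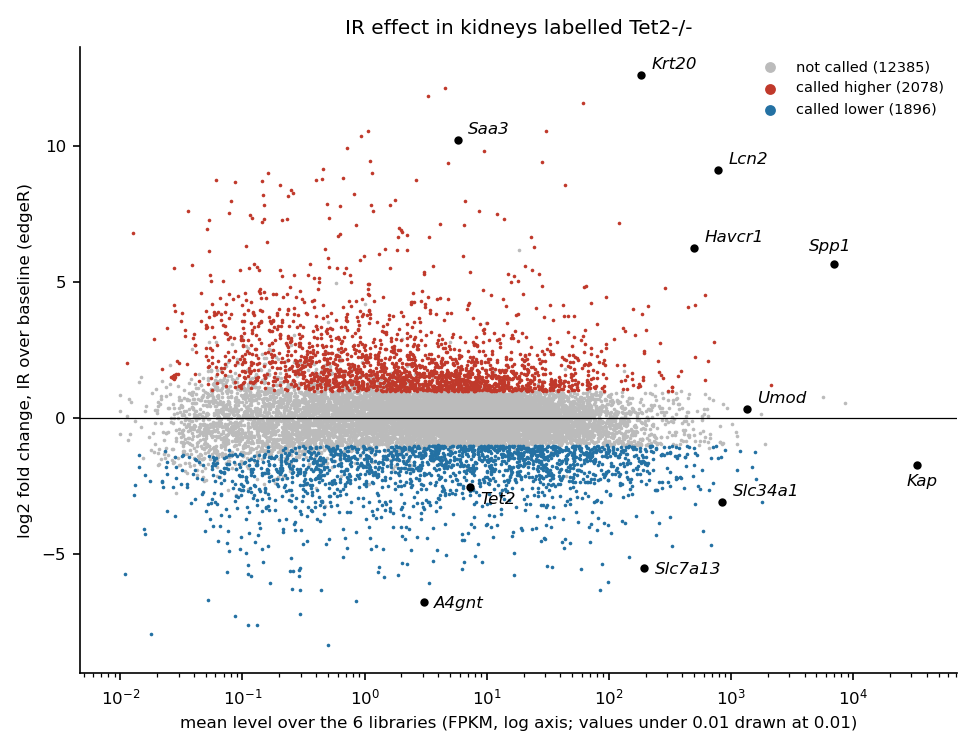
Each point is 1 of the 16359 genes tested, with its mean level over the 6 libraries labelled Tet2-/- (FPKM, log axis) and its log2 fold change, IR over baseline. Red points were called higher (2078) and blue points lower (1896), and the most abundant genes, at the right, lie mostly below 0.

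Total counts, over the 1 transcript kept per symbol, ran from 52881800 to 107970000 in the baseline libraries and from 68893900 to 94522000 in the IR libraries. The first principal component, with 73.5% of the variance, separated baseline from IR, and the second, with 11.8%, spread IR replicates 2 and 3 apart. Markers of other cells differed between the IR libraries. Summed levels of 27 macrophage and monocyte genes were 70.3, 108 and 57.9 FPKM at baseline and 148, 344 and 91 FPKM after IR, highest in IR replicate 2. Those of 10 adipocyte genes, of which 4 passed the filter and 2 were called higher, were 39.6, 73 and 55.5 FPKM at baseline and 116, 82.3 and 610.3 FPKM after IR, highest in IR replicate 3. Those of 18 thick ascending limb genes were 1801, 2418 and 1561 FPKM at baseline and 2502, 2948 and 545 FPKM after IR, lowest in IR replicate 3. *Umod* alone was at 891, 1469.6 and 807 FPKM at baseline and 2018, 2512 and 354 FPKM after IR, a large part of these sums. Of the 18 genes, 15 had a negative log2 fold change. Skeletal muscle genes summed to under 2 FPKM and adrenal genes to under 4 FPKM in each library. The part of these differences in the results was not tested, and in bulk tissue fewer cells of a type cannot be told apart from less RNA per cell.

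**Figure D2:**
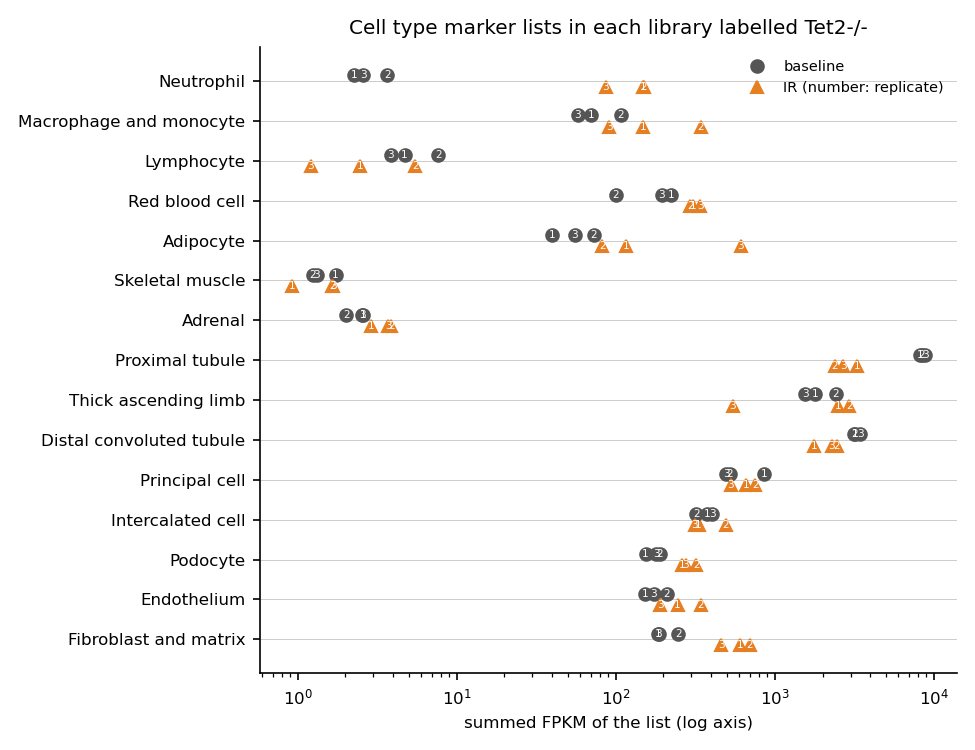
Summed FPKM (log axis) of each cell type marker list in the 3 baseline libraries (circles) and 3 IR libraries (triangles) labelled Tet2-/-, with the replicate number in each symbol. Neutrophil genes lie far higher and proximal tubule genes lower in all 3 IR libraries, while macrophage, adipocyte and thick ascending limb genes spread between the IR libraries. Umod makes up a large part of the thick ascending limb sums.

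Genes of tubular injury and dedifferentiation rose together: 27 of 30 tested members were called higher and 0 lower, with a median log2 fold change of 3.78. *Krt20*, a keratin of umbrella and injured epithelia, went from 0.038, 0.067 and 0.028 FPKM at baseline to 399.5, 261 and 436 FPKM after IR, a log2 fold change of 12.61 ± 0.48 (SE, adjusted p = 4.36e-05, edgeR). It was nearly silent in each baseline library and among the abundant transcripts in each IR library. *Lcn2*, which encodes the iron carrier NGAL, was at 2.38, 3.33 and 1.19 FPKM at baseline and 1923, 1849 and 908 FPKM after IR (log2 fold change 9.13, adjusted p = 8.15e-05, edgeR). *Havcr1*, which encodes the phagocytic receptor KIM-1, was at 1.55, 20.9 and 10.1 FPKM before and 652, 867 and 1432 FPKM after IR (log2 fold change 6.26, adjusted p = 0.00202, edgeR). Its baseline was uneven, with replicate 1 well below the others, yet the groups were far apart. *Spp1*, which encodes osteopontin, went from 228, 268 and 160.5 FPKM to 10675, 21437 and 8742 FPKM (log2 fold change 5.68, adjusted p = 0.000251, edgeR), the largest gain in FPKM of any gene. *Sox9*, a transcription factor of progenitor and regenerating tubule cells, was below 0.1 FPKM in each baseline library and at 4.28, 3.58 and 5.43 FPKM after IR (log2 fold change 6.21, adjusted p = 4.78e-05, edgeR). The small proline-rich proteins *Sprr2f* and *Sprr2g*, which form the envelope of stratified epithelia, were close to silent before IR. *Sprr2f* went from 0, 0.06 and 0 FPKM to 88.9, 184 and 93.1 FPKM, and *Sprr2g* from 0.123, 0.087 and 0 FPKM to 53.9, 59.3 and 56.3 FPKM. The simple epithelial keratins were higher as well, *Krt8* from 57.3 to 469 FPKM, *Krt18* from 13.4 to 72.3 FPKM and *Krt19* from 2.02 to 27.1 FPKM. So were the chaperone *Clu* (4.08), the hyaluronan receptor *Cd44* (4.28), the protease inhibitor *Timp1* (6.67), the calcium-binding *S100a6* (4.8) and the stress hormone *Gdf15* (3.46), with log2 fold changes in parentheses. The 3 members not called were *Krt7*, *Vcam1* and *Itgb6*, with log2 fold changes of 0.83, 1.03 and 0.39. *Krt7* passed the limits in 4 of the alternatives and *Vcam1* in 1.

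**Figure D3:**
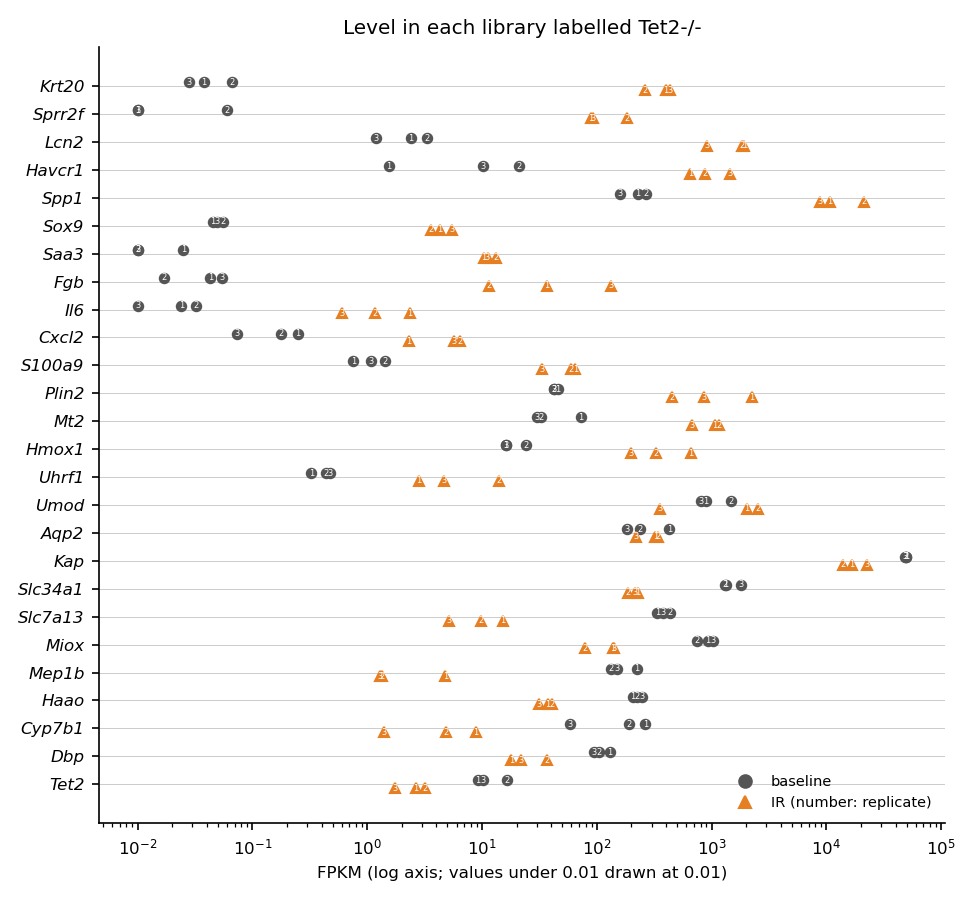
FPKM (log axis) of 26 named genes in each baseline library (circles) and IR library (triangles) labelled Tet2-/-, with the replicate number in each symbol. For all genes shown but Umod and Aqp2 the 2 groups do not overlap, and Umod is lowest in IR replicate 3 and highest in IR replicate 2.

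The 250 bases before the transcript start were read from mm9 for 16337 of the 16359 genes, as a description of the called genes, with 6 short motifs searched on both strands. The AP-1 motif TGANTCA was in 9% of windows of higher genes, 5.07% of lower genes and 4.62% of all genes tested. The motif GTTAAT was in 3.42% of higher, 6.98% of lower and 4.32% of all. In the 2077 windows of higher, the 1892 of lower and all windows, GGGNNTTCC (NF-kB) was in 6.26%, 5.66% and 5.96%, TTCCNGGAA (STAT) in 1.06%, 1.11% and 1.03%, and TTGCNNAA (C/EBP) in 8.57%, 8.99% and 7.65%. CAAAGTCCA (HNF4) was in 0.53%, 0.793% and 0.386%, which are 11, 15 and 63 windows. Median GC content was 58.8% in higher, 56.4% in lower and 59.2% in all windows. The NF-kB and STAT motifs can share the letters TTCC, and a match is a run of letters, not a shown binding site. AP-1 motifs were in 6 of the 30 injury list windows (20%, against 4.62% of all windows). For 3 of these genes, chosen as the most changed with a match, the window is printed 5′ to 3′ on the gene's strand with the AP-1 motif in capitals. They are *Sprr2f* at chr3:92168859-92169108 on the plus strand, *Sox9* at chr11:112643274-112643523 on the plus strand and *Sprr1a* at chr3:92289804-92290053 on the minus strand, which holds 2 copies.
Sprr2f: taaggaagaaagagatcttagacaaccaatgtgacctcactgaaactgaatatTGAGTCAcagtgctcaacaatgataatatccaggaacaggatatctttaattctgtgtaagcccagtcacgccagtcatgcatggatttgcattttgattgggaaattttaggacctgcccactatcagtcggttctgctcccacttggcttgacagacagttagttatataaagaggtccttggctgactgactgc
Sox9: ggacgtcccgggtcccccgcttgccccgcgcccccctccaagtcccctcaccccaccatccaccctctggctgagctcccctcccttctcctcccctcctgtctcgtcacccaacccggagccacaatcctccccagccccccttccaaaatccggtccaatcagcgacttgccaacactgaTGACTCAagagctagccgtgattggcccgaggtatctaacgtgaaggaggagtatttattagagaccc
Sprr1a: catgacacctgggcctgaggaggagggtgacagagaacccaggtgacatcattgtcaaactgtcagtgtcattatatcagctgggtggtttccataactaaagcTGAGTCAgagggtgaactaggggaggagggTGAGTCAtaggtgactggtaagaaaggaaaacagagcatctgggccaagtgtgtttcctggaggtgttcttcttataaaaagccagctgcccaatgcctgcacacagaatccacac

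Of the AP-1 and immediate early genes 11 of 35 were called higher and 6 lower, against 12.7% and 11.6% of all genes, with a median of 0.50. Those that rose included *Fosl1*, at 0.114, 0.145 and 0.169 FPKM at baseline and 37.5, 22 and 23.6 FPKM after IR (log2 fold change 7.34, adjusted p = 4.4e-05, edgeR), the transcription factors *Myc* (2.52 to 22.6 FPKM), *Klf6* (4.01 to 38.1 FPKM), *Runx1* (0.139 to 1.61 FPKM) and *Maff* (2 to 20.9 FPKM). *Fos*, *Nr4a1* and *Dusp1*, genes of the first wave of induction, went the other way or were not called. *Fos* was at 8.25, 5.52 and 4.71 FPKM before and 5.41, 4.5 and 2.57 FPKM after IR and was not called. The nuclear receptor *Nr4a1* fell from 26.5, 13.3 and 7.51 FPKM to 4.51, 4.52 and 3.6 FPKM and the phosphatase *Dusp1* from 78.6, 64.1 and 82.5 FPKM to 22.9, 17 and 41.8 FPKM.

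Acute phase and fibrinogen genes, products usually made by the liver, rose in most of the list. Of 19 tested members 15 were called higher and 1 lower, with a median of 4.84. The 3 fibrinogen chains moved alike: *Fgb* was at 0.043, 0.017 and 0.054 FPKM at baseline and 36.6, 11.4 and 134 FPKM after IR (log2 fold change 10.55, adjusted p = 0.000771, edgeR). *Fgg* reached 180.4, 59.3 and 479 FPKM from a mean of 1.45, and *Fga* 119, 33.5 and 213 FPKM from 3.69. In each chain IR replicate 3 was highest and replicate 2 lowest. The serum amyloid genes were at or near 0 at baseline. *Saa3*, with at most 1 count in any baseline library, reached 10.3, 13.3 and 11.2 FPKM (adjusted p = 7.79e-05, edgeR). *Saa1*, with 0 counts in each baseline library, reached 10.3, 3.4 and 13.6 FPKM, at least 175-fold higher against a floor of 3 counts. About 10.8% of the 50-base stretches of *Saa1* occur in *Saa2* or *Saa3*. *Hp*, which encodes haptoglobin, was at 3.7, 6.37 and 249 FPKM after IR and below 0.4 FPKM at baseline, and its log2 fold change was 8.57, but 4.28 without IR replicate 3. *Hp* was not called with limma on log2(FPKM + 1) (adjusted p = 0.0528), and DESeq2 gave it no adjusted p. *Serpina3n*, an inhibitor of serine proteases, was even across the IR libraries at 50.6, 51.1 and 43.1 FPKM (log2 fold change 6.31, adjusted p = 5.32e-05, edgeR). Complement *C3* rose from 1.81 to 12.2 FPKM, and *Socs3*, the feedback inhibitor of cytokine signalling through STAT3, from 0.749 to 20.9 FPKM. The member called lower was *A2m*, at 0.758, 0.738 and 0.344 FPKM before and 0.057, 0.093 and 0.03 FPKM after IR.

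Among cytokines and chemokines 19 of 38 tested members were called higher and 4 lower, with a median of 1.61. Several of these genes (*Il6*, *Tnf*, *Cxcl2*, *Ccl2* and *Ccl6* here, and *S100a8*, *S100a9*, *Cd14* and *Itgam* in the other lists) were named by the study from these samples, so their direction is not independent evidence. *Il6*, the inducer of the hepatic acute phase, had 0.024, 0.032 and 0.009 FPKM at baseline and 2.36, 1.17 and 0.607 FPKM after IR (log2 fold change 5.53, adjusted p = 0.000953, edgeR). Its relative *Lif* went from 0.132, 0.178 and 0.055 FPKM to 12.9, 7.4 and 1.18 FPKM, and *Il11* from 0.121, 0.108 and 0.066 FPKM to 2.05, 4.61 and 1.51 FPKM. All 3 were low in each baseline library and raised in each IR library, by amounts that differed between the IR libraries. Of the neutrophil chemoattractants, *Cxcl2* went from 0.166 to 4.8 FPKM (log2 fold change 4.6, adjusted p = 0.000744, edgeR), and *Cxcl3* from at most 0.02 to a mean of 1.25 FPKM. *Cxcl1*, already at 17.5, 12.4 and 11 FPKM at baseline, was at 19.9, 25.5 and 22.5 FPKM after IR and not called (log2 fold change 0.47, adjusted p = 0.0758, edgeR). *Ccl20*, a ligand of CCR6, reached 3.95, 4.34 and 0.439 FPKM from 0.017, 0.042 and 0.027 FPKM, least in IR replicate 3. The macrophage growth factor *Csf1* rose from 1.61, 1.66 and 1.2 FPKM to 10.2, 15 and 5.75 FPKM and *Il34*, the other ligand of its receptor, from 11.1, 15.6 and 14 FPKM to 88.3, 65.3 and 89.6 FPKM (log2 fold changes 2.51 and 2.33). The monocyte chemoattractant *Ccl2* rose from 0.317, 0.592 and 0.252 FPKM to 1.76, 7.38 and 1.71 FPKM (log2 fold change 2.89, adjusted p = 0.0104, edgeR). *Tnf* was called at an adjusted p of 0.0486 (edgeR) with overlapping groups, 0.089, 0.052 and 0.019 FPKM before and 0.205, 0.743 and 0.087 FPKM after IR. It lost the call when baseline replicate 1, 2 or 3 or IR replicate 1 or 2 was left out, with log2 fold changes of 1.31 to 2.88 over the 6 fits that left out 1 library. The 4 lower members were *Cxcl12*, at 28.6, 41.8 and 34.3 FPKM at baseline and 6.22, 8.15 and 1.82 FPKM after IR (log2 fold change −2.99, adjusted p = 0.00227, edgeR), the mucosal chemokine *Ccl28*, the interferon-induced T-cell chemoattractant *Cxcl9*, and *Cxcl11*, whose transcript here is a noncoding one in RefSeq. The log2 fold changes of the last 3 were −1.86, −3.87 and −1.92, and *Cxcl11* lost the call without baseline replicate 1 or 2 or IR replicate 2 or 3, with library sizes alone and with limma.

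Of 23 neutrophil genes 19 passed the filter on low counts and 18 rose, with a median of 5.44 over the tested ones, which leaves out members that stayed low. *S100a8* and *S100a9*, the subunits of calprotectin, rose side by side. *S100a8* went from 0.776, 0.712 and 0.576 FPKM to 47.2, 46.6 and 27.4 FPKM (log2 fold change 5.61, adjusted p = 4.78e-05, edgeR), and *S100a9* from 0.759, 1.43 and 1.07 FPKM to 65, 59.2 and 33.1 FPKM (log2 fold change 5.29, adjusted p = 9.47e-05, edgeR). In both, IR replicate 3 was the lowest of the IR libraries and still far above baseline. The resistin-like *Retnlg* had 15.9, 10.8 and 12.3 FPKM after IR (log2 fold change 7.12, adjusted p = 0.000318, edgeR), and the decoy receptor *Il1r2* 3.42, 3.15 and 3.04 FPKM (log2 fold change 5.51, adjusted p = 0.00013, edgeR). The exception was the granule gene *Ltf*, at 0.032, 0.137 and 0.101 FPKM before and 0.058, 0.235 and 0.091 FPKM after IR. Macrophage and monocyte genes moved unequally: 9 of 27 were called higher and 1 lower, with a median of 0.78 that changed sign, to −0.06, without IR replicate 2. *Chil3* (7.64), *Cd14* (4.56), *Itgam* (3.5) and *Cd68* (3.46) rose, with log2 fold changes in parentheses. The pan-macrophage *Adgre1*, which encodes F4/80, was at 0.153, 0.615 and 0.186 FPKM before and 0.309, 1.13 and 0.103 FPKM after IR, and complement *C1qa* at 6.45, 12.7 and 5.91 FPKM before and 8.65, 20 and 4.48 FPKM after IR, with overlapping groups in both. *Lyz2* reached 13.1, 119.7 and 5.36 FPKM from 3.99, 18.2 and 4.16 FPKM, high in IR replicate 2 only, with 15.4% of its 50-base stretches shared with Lyz1, and was called only with the replicate block (log2 fold change 1.37, adjusted p = 0.0198, edgeR). *Csf1r*, the receptor of CSF1 and IL-34, fell from 30.9, 23 and 18.1 to 4.44, 6.93 and 2.21 FPKM (log2 fold change −2.69, adjusted p = 0.00124, edgeR), opposite to both of its ligands. Lymphocyte genes had a median of −1.43, with 0 of 19 called higher and 3 lower, the latter near the 11.6% of all genes. The 3 were *Cd2*, *Cd8a* and *Nkg7*, all under 1.1 FPKM at baseline and each lost when 1 library was left out (*Cd2* without baseline replicates 1 or 2 or IR replicate 1, *Cd8a* without baseline replicate 2, *Nkg7* without baseline replicate 2 or IR replicate 1). None of 8 red blood cell genes was called by edgeR, and 2 of them had an unadjusted p under 0.05.

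Transporters of the proximal tubule fell broadly: 29 of 43 were called lower and 0 higher, with a median of −2.0. The phosphate transporter *Slc34a1* was at 1338, 1302 and 1811 FPKM at baseline and 228, 188 and 214 FPKM after IR, a log2 fold change of −3.08 ± 0.29 (SE, adjusted p = 0.0003, edgeR). *Slc7a13*, an aspartate and glutamate carrier of the last proximal segment, was at 336, 432 and 374 FPKM before and 15.3, 9.71 and 5.18 FPKM after IR (log2 fold change −5.51, adjusted p = 0.000157, edgeR). The organic anion carrier *Slc22a7* fell from 360, 307 and 179.8 FPKM to 16.5, 9.65 and 3.18 FPKM (log2 fold change −5.12, adjusted p = 0.000718, edgeR). In these 3 genes each IR library was far below each baseline library. The water channel *Aqp1* fell from 504, 544 and 518 to 148, 132 and 54.7 FPKM (log2 fold change −2.5, adjusted p = 0.00135, edgeR), the fatty acid carrier *Slc27a2* from 1690.5 to 530.4 FPKM, the urate carrier *Slc22a12* from 579 to 259.9 FPKM and the fructose carrier *Slc2a5* from 19.1 to 1.94 FPKM. The other 14 members were not called. The glucose carrier *Slc5a2* had 92.9, 45.4 and 106 FPKM before and 39.5, 58.3 and 93.4 FPKM after IR, the organic anion exchanger *Slc22a6* 151, 198 and 253 FPKM before and 331, 131 and 139 FPKM after IR and the neutral amino acid carrier *Slc6a18* 319, 299 and 249 FPKM before and 305, 343 and 300.5 FPKM after IR, with overlapping groups in each.

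The brush border and the endocytic machinery showed the same direction, with 21 of 29 members lower, 0 higher and a median of −1.46. *Mep1b*, which encodes the meprin β protease subunit, was at 222, 132 and 151 FPKM at baseline and 4.8, 1.35 and 1.3 FPKM after IR (log2 fold change −6.33, adjusted p = 0.000395, edgeR), while its partner *Mep1a* kept a larger share, 583, 669 and 566 FPKM before and 213, 161 and 116 FPKM after IR (log2 fold change −2.15, adjusted p = 0.000766, edgeR). Megalin (*Lrp2*) and cubilin (*Cubn*), which take up filtered protein, fell from 69.8 to 21.8 and from 20.9 to 8.77 FPKM (−1.94 and −1.52 on the log2 scale). The inositol-degrading oxygenase *Miox* fell from 931, 741 and 1033 to 138, 78.2 and 141 FPKM (log2 fold change −3.16, adjusted p = 0.000405, edgeR). The aminoacylase *Acy3*, among the most abundant transcripts at baseline, went from 2566 to 648 FPKM, and the peptidase *Ggt1* from 727 to 264 FPKM. In each of these genes all 3 IR libraries lay below all 3 baseline libraries. *Napsa*, an aspartic protease that no list held and that was chosen after its values were seen, lost more FPKM than any gene but *Kap*, from 3799, 3032 and 2601 to 580.2, 386 and 349 FPKM (log2 fold change −3.1, adjusted p = 0.000407, edgeR).

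Of the 43 windows of the proximal tubule list, 7 held the C/EBP motif (16.3%, against 7.65% of all windows), as did 5 of the 30 injury list windows (16.7%). The letters GTTAAT were in 8 of the 43 (18.6%, against 4.32% of all windows). The windows of 2 much changed genes with a match are shown with GTTAAT, or its reverse complement, in capitals. They are *Slc7a13* at chr4:19745624-19745873 and *Slc34a1* at chr13:55500759-55501008, both on the plus strand and both of mm9.
Slc7a13: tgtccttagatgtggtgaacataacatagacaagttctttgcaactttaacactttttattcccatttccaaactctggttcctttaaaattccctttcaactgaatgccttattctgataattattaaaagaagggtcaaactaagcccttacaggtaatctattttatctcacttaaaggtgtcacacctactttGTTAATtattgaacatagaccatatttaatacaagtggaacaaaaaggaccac
Slc34a1: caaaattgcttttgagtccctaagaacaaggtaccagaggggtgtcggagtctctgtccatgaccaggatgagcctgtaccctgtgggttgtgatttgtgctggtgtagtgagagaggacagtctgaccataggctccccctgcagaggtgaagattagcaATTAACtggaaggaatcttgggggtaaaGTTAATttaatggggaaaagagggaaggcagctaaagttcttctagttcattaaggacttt

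Of the transcription factors, *Hnf4a* was at 117, 163 and 153 FPKM at baseline and 82.5, 97.3 and 101 FPKM after IR, a difference under the limit of 1 that was not called (log2 fold change −0.88). Of 28 renal epithelial transcription factors 0 were called higher and 4 lower, the latter near the 11.6% of all genes. Among them were the glucocorticoid-induced *Klf15*, at 51.5, 44 and 60.4 FPKM before and 12.4, 11.6 and 19.1 FPKM after IR (log2 fold change −2.1, adjusted p = 0.00087, edgeR), and *Esrra*, a regulator of mitochondrial genes, at 58.9, 54.6 and 57.8 FPKM before and 24.9, 36.5 and 29.9 FPKM after IR (log2 fold change −1.17, adjusted p = 0.000935, edgeR). *Esrra* was at the limit and was not called with library sizes alone (log2 fold change −0.94) or with limma on log2(FPKM + 1) (−0.9) and log2(FPKM + 0.1) (−0.92).

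Many metabolic genes of the proximal tubule fell. In amino acid catabolism 41 of 57 members were lower and 4 higher, with a median of −1.72. The histidine-degrading urocanase *Uroc1* was at 14.6, 15.2 and 16.6 FPKM at baseline and 0.622, 0.926 and 0.141 FPKM after IR (log2 fold change −5.07, adjusted p = 0.000544, edgeR). Cystathionine β-synthase (*Cbs*), which draws homocysteine toward cysteine, was at 132, 125 and 140.2 FPKM before and 20.1, 18.7 and 17.9 FPKM after IR (log2 fold change −3.07, adjusted p = 4.78e-05, edgeR). In the tryptophan to NAD route, *Haao* was at 205, 223 and 246 FPKM before and 37.3, 41 and 31.6 FPKM after IR (log2 fold change −2.88, adjusted p = 5.19e-05, edgeR), *Kmo* fell from 28.5 to 8.96 FPKM, *Aadat* from 170 to 13.8 FPKM and *Ido2* from 5.07 to 0.293 FPKM. The members that rose included glutamate dehydrogenase (*Glud1*, 1.5), which releases ammonia from glutamate, and the glycine-cleaving *Gldc* (2.85), each with its log2 fold change. *Glud1* lost its call without baseline replicate 1 (adjusted p = 0.0513, edgeR).

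In fatty acid oxidation and ketone metabolism 11 of 38 members were lower and 3 higher, against 11.6% and 12.7% of all genes, with a median of −0.29. Medium-chain acyl-CoA dehydrogenase (*Acadm*) fell from 777, 738 and 562 to 181, 120 and 112 FPKM (log2 fold change −2.58, adjusted p = 0.000418, edgeR), the peroxisomal isomerase *Eci3* from 303 to 30.2 FPKM and the ketone body enzyme *Bdh1* from 115 to 19 FPKM. The carnitine gate *Cpt1a* was at 49, 48 and 59.3 FPKM before and 103, 60.8 and 91.1 FPKM after IR. The receptor *Ppara* was at 7.28, 8.07 and 7.27 FPKM before and 17.8, 12.3 and 13.5 FPKM after IR, and neither gene was called (adjusted p = 0.171 and 0.0155, edgeR). The higher members included *Cyp4a14* and *Pdk4*. The ω-hydroxylase *Cyp4a14* was at 7.69, 4.44 and 8.62 FPKM before and 438, 44.2 and 60.6 FPKM after IR (log2 fold change 4.46, adjusted p = 0.00757, edgeR), and *Pdk4*, which turns off pyruvate dehydrogenase, at 9.34, 5.13 and 9.53 FPKM before and 189, 22.7 and 41.6 FPKM after IR (log2 fold change 3.16, adjusted p = 0.0142, edgeR). In both the first IR library was several times above the others, and without it the log2 fold changes were 2.67 and 1.77. *Pdk4* was not called without baseline replicate 2 (adjusted p = 0.0522, edgeR). The lipid droplet coat *Plin2*, chosen after its values were seen, showed the same order, 2247, 451 and 851 FPKM after IR against 45.6, 42.3 and 42.6 FPKM at baseline (log2 fold change 4.52, adjusted p = 0.00117, edgeR). *Cidec*, another droplet protein and an adipocyte marker, was instead highest in IR replicate 3, at 7.29, 2.4 and 27.9 FPKM, the library with the highest adipocyte sum.

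Of 75 oxidative phosphorylation subunits 28 were lower and 0 higher, and 74 had a negative log2 fold change, with a median of −0.95 that stayed between −1.10 and −0.70 over the alternatives. The exception was *Ndufs5*, with a log2 fold change of 1.37 that was not called (adjusted p = 0.286, edgeR). It was at 5.1, 3.88 and 4.04 FPKM before and 2.49, 2.71 and 33 FPKM after IR. Without IR replicate 3 its log2 fold change was −1.04 and it was called lower (adjusted p = 0.0204, edgeR). Complex I subunits *Ndufv3* and *Ndufb4* fell from 107 to 43.4 and from 28.6 to 12.2 FPKM (−1.55 and −1.48 on the log2 scale). The complex II subunit *Sdhb* was at 364, 331 and 415 FPKM before and 176, 172 and 187 FPKM after IR (log2 fold change −1.31, adjusted p = 0.001, edgeR). The complex IV subunit *Cox4i1*, at 1102, 836 and 1025 FPKM before and 599, 562 and 771 FPKM after IR, had a log2 fold change of −0.86. The ATP synthase subunit *Atp5b* was at 1128, 1264 and 1440 FPKM before and 1012, 881 and 990 FPKM after IR, with a log2 fold change of −0.66. Neither passed the limit of 1. In gluconeogenesis and fructose metabolism 7 of 15 were lower and 1 higher. Glucose-6-phosphatase (*G6pc*) fell from 98.9, 69.9 and 118 to 19.8, 7.87 and 17.6 FPKM (log2 fold change −2.9, adjusted p = 0.00128, edgeR), fructose-bisphosphatase (*Fbp1*) from 563 to 150.5 FPKM and ketohexokinase (*Khk*) from 416 to 79.4 FPKM. *Pck1* was uneven after IR, at 1313, 510.2 and 742 FPKM against 1314, 1570.4 and 1236 FPKM at baseline, and not called (adjusted p = 0.0874, edgeR). Of 23 glycolysis genes 4 were higher, near the 12.7% of all genes, and 0 lower, and the sign of their median (0.08) changed over the alternatives. Hexokinase 2 (*Hk2*) rose from 0.077, 0.128 and 0.068 to 1.23, 2.61 and 1.37 FPKM (log2 fold change 3.95, adjusted p = 0.000366, edgeR) and the glucose carrier *Slc2a1* from 20.7 to 59.6 FPKM, a call that was lost without IR replicate 1 (log2 fold change 0.8). Lactate dehydrogenase *Ldha* was at 398, 419.9 and 476 FPKM before and 349, 367 and 424 FPKM after IR and not called.

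*Kap*, the androgen-regulated protein of the male proximal tubule, was the most abundant transcript of the baseline kidneys, at 49745, 49651 and 48048 FPKM, and was at 16589, 13868 and 22443 FPKM after IR (log2 fold change −1.72, adjusted p = 0.0129, edgeR). Its adjusted p was 0.0539 without baseline replicate 2 and 0.0628 without IR replicate 1 (edgeR). With limma it was 0.788 on log2(FPKM + 1) and 0.721 on log2(FPKM + 0.1). Of 11 genes known to depend on androgen in the male kidney, 9 were lower and 0 higher, with a median of −1.90. Ornithine decarboxylase (*Odc1*) fell from 358, 604 and 508 to 92.9, 165 and 95.4 FPKM (log2 fold change −2.34, adjusted p = 0.000925, edgeR). Cytochrome P450 and conjugation genes were lower in 24 of 42 members and higher in 7. The oxysterol hydroxylase *Cyp7b1* was at 265, 192 and 58.2 FPKM before and 8.84, 4.83 and 1.41 FPKM after IR (log2 fold change −5.36, adjusted p = 0.00187, edgeR). The cholesterol synthesis enzyme *Cyp51* was at 82.8, 97.8 and 52.7 FPKM before and 7.04, 7.29 and 6.83 FPKM after IR (log2 fold change −3.72, adjusted p = 9.47e-05, edgeR). *Cyp2e1* fell from 939 to 182 FPKM. Against this, *Cyp2a5* rose from 30 to 295 FPKM (log2 fold change 3.05, adjusted p = 0.00169, edgeR), although 28.6% of its 50-base stretches are shared with *Cyp2a4*, which was called lower (log2 fold change −1.5). The call of *Cyp2a4* was lost without baseline replicate 1 or 2 or IR replicate 2 or 3, with library sizes alone and with limma on log2(FPKM + 1).

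**Figure D4:**
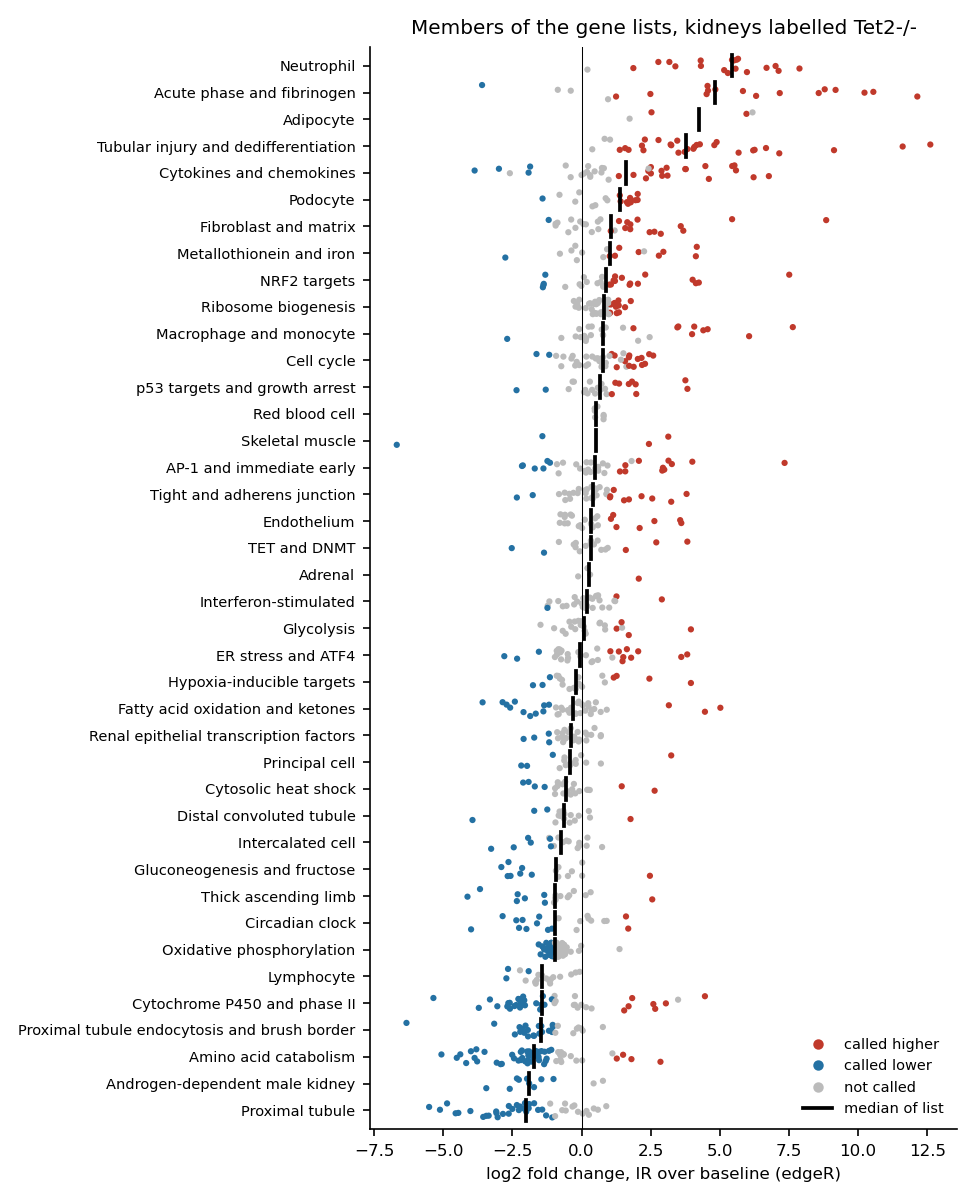
Log2 fold change, IR over baseline, of the tested members of 40 gene lists in the libraries labelled Tet2-/-, ordered by the list median (black tick); red and blue points were called higher and lower. Neutrophil, acute phase, adipocyte (4 tested members, median 4.25) and injury genes form the upper end, and proximal tubule, androgen-dependent and amino acid catabolism genes the lower end.

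In the thick ascending limb 7 of 18 were lower and 1 higher, against 11.6% and 12.7% of all genes. The sodium-potassium-chloride carrier *Slc12a1* was at 157, 152 and 106 FPKM before and 56.6, 46 and 18.3 FPKM after IR (log2 fold change −2.05, adjusted p = 0.00455, edgeR). The growth factor *Egf* was at 125, 204 and 118 FPKM before and 26.4, 13.2 and 2.82 FPKM after IR (log2 fold change −3.67, adjusted p = 0.00577, edgeR). The tight junction protein *Cldn10* was at 89.6, 110.5 and 122 FPKM before and 22.6, 35.6 and 19.1 FPKM after IR (log2 fold change −2.34, adjusted p = 0.000351, edgeR). All 3 genes were lower in each IR library than in any baseline library. The signalling protein *Ppp1r1b* was at 41.2, 39.4 and 27.8 FPKM before and 2.39, 3.25 and 1.84 FPKM after IR (log2 fold change −4.12, adjusted p = 5.67e-05, edgeR). *Umod*, which encodes uromodulin, did not follow them: it was at 891, 1469.6 and 807 FPKM at baseline and at 2018, 2512 and 354 FPKM after IR, above baseline in 2 libraries and below it in IR replicate 3 (log2 fold change 0.33, adjusted p = 0.689, edgeR). That library also had the lowest *Slc12a1* and *Egf*. In the distal convoluted tubule 3 of 17 were lower and 1 higher, and in principal cells 3 of 16 were lower and 1 higher. Both counts are near the 11.6% lower and 12.7% higher of all genes tested. The calcium buffer *Pvalb* fell from 11.6, 29.6 and 26.5 to 1.29, 2.69 and 1.37 FPKM (log2 fold change −3.94, adjusted p = 0.000549, edgeR), and the calcium channel *Trpv5* rose from 0.819, 1.33 and 1.64 to 7.45, 5.82 and 2.44 FPKM (log2 fold change 1.77, adjusted p = 0.0128, edgeR). The thiazide-sensitive carrier *Slc12a3* was at 71.2, 66.3 and 63.7 FPKM before and 70.9, 91.3 and 25.2 FPKM after IR, not called. The vasopressin-regulated channel *Aqp2* was at 429, 239.7 and 184 FPKM before and 324, 339 and 219 FPKM after IR with overlapping groups (log2 fold change −0.21). The basolateral *Aqp4* fell from 11.8 to 3.64 FPKM, a call that was lost without baseline replicate 1 (adjusted p = 0.0505, edgeR), and the peptide *Apela* from 45.4 to 12.1 FPKM. Of 18 intercalated cell genes 6 were lower and 0 higher. The chloride-bicarbonate exchanger *Slc4a1* was at 7.13, 7.47 and 7.37 FPKM before and 0.506, 2.02 and 0.294 FPKM after IR (log2 fold change −3.27, adjusted p = 0.00487, edgeR). The ammonia channel *Rhcg* was at 40.9, 34.2 and 44.2 FPKM before and 7.56, 23.5 and 7.41 FPKM after IR (log2 fold change −1.93, adjusted p = 0.00796, edgeR). *Aqp6* fell from 23.4 to 5.26 FPKM. In these the second IR library stayed closest to baseline.

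Of 18 podocyte genes 10 were called higher and 1 lower, with a median of 1.40. The transcription factor *Wt1* was at 0.592, 0.557 and 0.578 FPKM before and 2.22, 2.46 and 3.64 FPKM after IR (log2 fold change 2.03, adjusted p = 0.00117, edgeR). The actin-binding *Synpo* was at 2.64, 3.31 and 2.53 FPKM before and 9.03, 17.9 and 12.7 FPKM after IR (log2 fold change 1.95, adjusted p = 0.000698, edgeR). These glomerular transcripts were low at baseline and higher in each IR library. *Podxl* was at 7.24, 10.9 and 8.66 FPKM before and 21, 45.2 and 34.3 FPKM after IR (log2 fold change 1.64, adjusted p = 0.00297, edgeR). *Nphs1* was at 0.945, 0.961 and 0.783 FPKM before and 1.71, 4.44 and 2.52 FPKM after IR (log2 fold change 1.41, adjusted p = 0.00882, edgeR). *Nphs1* was not called in the fit of all 12 libraries (adjusted p = 0.0718, edgeR) or with limma on log2(FPKM + 1). The groups did not overlap for these 4, and the lowest IR library was replicate 1 in each. The lower member was the growth factor *Vegfa*, which tubule cells also make, at 66.9, 78.5 and 76.7 FPKM before and 37.3, 36 and 27.1 FPKM after IR (log2 fold change −1.41, adjusted p = 0.000605, edgeR). In the endothelium 7 of 25 were higher and 0 lower. The pan-endothelial *Pecam1*, at 5.3, 7.92 and 6.78 FPKM before and 12.8, 16.2 and 7.12 FPKM after IR, and *Cdh5*, at 2.24, 4.12 and 3.56 FPKM before and 5.68, 5.98 and 3.54 FPKM after IR, were not called, while the anticoagulant *Thbd* (2.27 to 11.7 FPKM), the plasminogen activator *Plat* (5.45 to 40.4 FPKM) and the leukocyte adhesion genes *Icam1* (5.84 to 15.5 FPKM), *Selp* and *Sele* were. Both selectins stayed under 0.4 FPKM in each IR library. *Icam1* was at a log2 fold change of 1.14, and 0.94 without baseline replicate 3. Of 29 fibroblast and matrix genes 14 were higher and 1 lower. The matrix protein *Tnc* was at 0.628, 1.08 and 0.69 FPKM before and 9.15, 9.14 and 3.04 FPKM after IR (log2 fold change 2.87, adjusted p = 0.00158, edgeR). *Ctgf* was at 21.4, 28.2 and 21.2 FPKM before and 126, 102 and 114 FPKM after IR (log2 fold change 2.02, adjusted p = 0.000281, edgeR). The collagen gene *Col3a1*, at 3.82, 12.9 and 8.71 FPKM before and 9.54, 28.8 and 2.78 FPKM after IR, was not called and was highest in IR replicate 2.

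Of 28 NRF2 targets 14 were higher and 4 lower. Heme oxygenase (*Hmox1*) was at 16.1, 24.2 and 16.2 FPKM before and 662, 329 and 197 FPKM after IR (log2 fold change 4.13, adjusted p = 0.000586, edgeR). Sulfiredoxin (*Srxn1*) was at 15.7, 15.8 and 14.9 FPKM before and 349.8, 241 and 301 FPKM after IR (log2 fold change 4.02, adjusted p = 6.62e-05, edgeR). *Txnrd1* rose from 30.5 to 149.6 FPKM and *Nqo1* from 27.1 to 109 FPKM. *Gclc*, the catalytic subunit of glutathione synthesis, was at 119, 157 and 79.7 FPKM before and 108, 109 and 66.1 FPKM after IR and was not called. *Gsta1* had a log2 fold change of 7.51, with 89.7% of its 50-base stretches shared with other Gsta copies. Metallothioneins rose, *Mt1* from 218, 122 and 127 to 1192, 1497 and 1183 FPKM (log2 fold change 2.8, adjusted p = 0.000285, edgeR). *Mt2* rose from 72.1, 32.3 and 30.4 to 1064, 1169 and 670.3 FPKM (log2 fold change 4.17, adjusted p = 0.000313, edgeR). Among cytosolic heat shock genes 4 of 22 were lower and 2 higher, against 11.6% and 12.7% of all genes. *Hspa1a* was at 31.3, 23.7 and 40.8 FPKM before and 10.6, 11.3 and 5.06 FPKM after IR (log2 fold change −2.11, adjusted p = 0.00169, edgeR), with 61% of its 50-base stretches shared with copies such as *Hspa1b*. *Dnaja1* fell from 60.1 to 19.1 FPKM, and the small heat shock protein *Hspb1* rose from 10.4, 17 and 8.26 to 89.6, 94 and 82.4 FPKM (log2 fold change 2.64, adjusted p = 0.000335, edgeR). Of 31 genes of endoplasmic reticulum stress and ATF4, 9 were higher and 3 lower, against 12.7% and 11.6% of all genes. The chaperone *Hspa5* was at 153, 287 and 195 FPKM before and 154, 148 and 110.2 FPKM after IR and was not called, and *Herpud1*, which acts in the degradation of misfolded proteins, fell, with 238, 257 and 295 FPKM before and 32.7, 53 and 50.8 FPKM after IR (log2 fold change −2.79, adjusted p = 0.00022, edgeR). The serine synthesis enzyme *Psat1* rose from 4.6 to 65.4 FPKM (log2 fold change 3.6, adjusted p = 0.000674, edgeR), the cystine carrier *Slc7a11* from 0.0783 to 1.35 FPKM (log2 fold change 3.82, adjusted p = 0.000132, edgeR) and asparagine synthetase (*Asns*) from 5.13 to 17.1 FPKM. Of 21 hypoxia-inducible genes 4 were higher and 3 lower, against 12.7% and 11.6% of all genes. *Adm* rose from 4.19 to 27.2 FPKM (log2 fold change 2.45, adjusted p = 0.000599, edgeR). *Car9* fell from 8.98 to 3.2 FPKM (log2 fold change −1.76, adjusted p = 0.00503, edgeR), and the median, −0.21, was 0.02 with library sizes alone.

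Of 25 p53 targets and arrest genes 9 were higher, 2 lower and 14 not called, where 12.7% of all genes were higher. The cyclin-dependent kinase inhibitor *Cdkn1a* was at 5.87, 3.56 and 7.08 FPKM at baseline and 101, 60.7 and 102 FPKM after IR (log2 fold change 3.75, adjusted p = 0.000304, edgeR), and the death receptor *Eda2r* rose from 0.0283 to 0.503 FPKM, while *Gadd45g* fell from 242 to 56.1 FPKM (log2 fold change −2.35, adjusted p = 0.000893, edgeR). Of 41 cell cycle genes 14 were higher, 2 lower and 25 not called. The replicative helicase subunit *Mcm3* rose from 0.726, 1.11 and 1.31 FPKM to 3.37, 14.2 and 5.79 FPKM (log2 fold change 2.59, adjusted p = 0.00526, edgeR), and its partner *Mcm5* from 1.01, 1.23 and 1.38 FPKM to 3.42, 15.4 and 5.51 FPKM (log2 fold change 2.44, adjusted p = 0.00642, edgeR). The licensing factor *Cdt1* rose from 1.66, 1.11 and 2.04 FPKM to 4.88, 13.5 and 7.84 FPKM (log2 fold change 2.17, adjusted p = 0.00353, edgeR). The second IR library was highest in each. The proliferation marker *Mki67*, at 0.169, 0.434 and 0.288 FPKM before and 0.282, 0.975 and 0.193 FPKM after IR, was not called, and the mitotic kinase *Cdk1*, called at 1.71, lost the call without baseline replicates 1 or 3 or IR replicate 2 (adjusted p = 0.093, 0.0837 and 0.0749, edgeR). Of 45 ribosome biogenesis genes 11 were called higher and 0 lower, with a median of 0.81. The nucleolar helicase *Ddx21* rose from 4.69, 6.06 and 5.68 to 27.4, 21.4 and 18.8 FPKM (log2 fold change 1.78, adjusted p = 0.0004, edgeR). *Nop56* rose from 8.07 to 28.8 FPKM. Of 60 annotated snoRNAs 17 were higher and 1 lower, with a median of 0.88.

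Of 20 circadian genes 10 were lower and 2 higher, and the clock's output genes were among the lower ones. *Ciart* was at 25.6, 14.2 and 20.6 FPKM at baseline and 1.29, 1.7 and 1.53 FPKM after IR (log2 fold change −3.99, adjusted p = 9.47e-05, edgeR). *Dbp* was at 129, 104 and 94.8 FPKM before and 18, 37.2 and 22 FPKM after IR (log2 fold change −2.36, adjusted p = 0.000503, edgeR). *Per3* was at 9.84, 9.67 and 7.96 FPKM before and 2.43, 4.07 and 1.86 FPKM after IR (log2 fold change −1.99, adjusted p = 0.000726, edgeR). The 2 that rose, *Arntl* (log2 fold change 1.61) and *Npas2* (log2 fold change 1.69), encode partners of the activating limb, and both lost the call without baseline replicates 1 or 2 (*Arntl* also without IR replicate 1). The time of day at which kidneys were taken is not given in the sources used here, and its part in these values was not tested. Of 29 interferon-stimulated genes 2 were higher and 1 lower, against 12.7% and 11.6% of all genes tested. Of 34 tight and adherens junction genes 9 were higher and 2 lower, against the same shares. *Cldn1* was at 1.86, 1.61 and 2.49 FPKM before and 20.9, 33.1 and 44.5 FPKM after IR (log2 fold change 3.8, adjusted p = 0.000258, edgeR). *Cldn4* was at 16.9, 7.63 and 6.86 FPKM before and 99.8, 109.9 and 140 FPKM after IR (log2 fold change 3.24, adjusted p = 0.000625, edgeR). *Tjp1* was at 3.74, 3.71 and 3.27 FPKM before and 10, 8.29 and 5.99 FPKM after IR, a log2 fold change of 0.92 just under the limit that passed it with library sizes alone, limma on log2(FPKM + 0.1) and without IR replicate 3, and *Cldn8* was at 14.1, 10.7 and 10.8 FPKM before and 10.6, 16.6 and 5.26 FPKM after IR, not called.

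The 12 largest fitted increases, among genes with a mean of at least 1 FPKM in either group and no overlap, were *Krt20*, *Saa1*, *Crct1*, *Sprr2f*, *1700001F09Rik*, *Fgb*, *BC061237*, *Saa3*, *Gm10375*, the mast cell tryptase *Tpsab1*, the epidermal cytokine *Il1f9* and *Sprr2g*. Most had few or no counts at baseline, so their order is not settled. *Tpsab1* was at 0.062, 0 and 0 FPKM at baseline and 35.6, 13.6 and 7.66 FPKM after IR (log2 fold change 9.82, adjusted p = 0.000553, edgeR). With so few baseline counts its log2 fold change ranged from 4.03 to 14.24 over the alternatives, the latter without baseline replicate 1. *Crct1*, a cornified envelope protein, had 0 counts at baseline and 8.21, 9.63 and 1.86 FPKM after IR, at least 149.6-fold higher against the floor of 3 counts. The chromosome 14 genes *1700001F09Rik*, *BC061237* and *Gm10375* were at 0 at baseline and between 1.25 and 2.85 FPKM after IR, but share 90.1%, 48.4% and 89.6% of their 50-base stretches with other genes, so their counts cannot be assigned with certainty. The 12 largest decreases under the same conditions included *Mep1b* and *Slc7a13*. The glycosyltransferase *A4gnt* was at 7.66, 6.46 and 4.03 FPKM before and 0.041, 0.114 and 0.046 FPKM after IR (log2 fold change −6.75, adjusted p = 0.000101, edgeR). *BC024386* was at 193, 164 and 217 FPKM before and 3.93, 3.39 and 3.32 FPKM after IR (log2 fold change −6.01, adjusted p = 3.4e-05, edgeR). The collagen gene *Col6a6* was at 3.21, 4.03 and 3.84 FPKM before and 0.077, 0.087 and 0.08 FPKM after IR (log2 fold change −5.76, adjusted p = 3.4e-05, edgeR). The IR values of the last 2 genes were close to each other. *Higd1c* was at 52.6, 23 and 21.7 FPKM before and 1.05, 0.831 and 0.254 FPKM after IR (log2 fold change −5.75, adjusted p = 0.000397, edgeR). *Tex21*, *Smcp*, *Erich6b*, the noncoding *Sox2ot*, *Serpina6* (corticosteroid-binding globulin) and *Mettl7a2* made up the rest, with log2 fold changes of −6.71, −6.07, −5.83, −5.65, −5.56 and −5.56. For *Mettl7a2*, 34.4% of its 50-base stretches are shared with Mettl7a1 and Mettl7a3. In each of these the highest IR library lay far below the lowest baseline library.

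Set beside the kidneys labelled WT, which share no sample with this comparison, the IR effect differed for 1536 of 16741 genes (9.18%, interaction at an adjusted p under 0.05, edgeR over all 12 libraries), 634 more positive and 902 more negative in Tet2-/-. With library sizes alone the split was 1129 and 700, and with the replicate number as a block 1024 and 1077. Without baseline replicate 1, 2 or 3 or IR replicate 1 of the Tet2-/- libraries the total was 851, 851, 697 and 993. Of the 2075 genes called higher here that were tested, 483 were among the positive ones and 0 among the negative ones, and of 1896 called lower, 718 were negative and 0 positive. The interaction uses the same 6 libraries as the calls, so this direction is partly built in. The proximal tubule lists held many of them: 23 of 43 transporters and 15 of 29 brush border genes had a more negative IR effect, where the WT medians were −0.29 and −0.29. *Aqp1* had a log2 fold change of −2.5 here and −0.18 in WT (interaction adjusted p = 0.0126, edgeR), and *Uroc1* −5.07 and −0.14 (interaction adjusted p = 0.00878, edgeR). Values for WT come from the fit of all 12 libraries and those for Tet2-/- from the fit of its own 6. Among genes more positive in Tet2-/- were, with log2 fold changes in Tet2-/- and WT in parentheses, *Krt20* (12.61 and 6.47), *Lcn2* (9.13 and 6.17) and *S100a8* (5.61 and 1.95). The WT IR libraries were uneven: the injury list summed to 2428.5, 9502 and 7306 FPKM in replicates 1, 2 and 3. Their mean was 78 FPKM for *Krt20* (SD 64.65) and 236 FPKM for *Lcn2* (SD 212), and no fit left out a WT library. For *Havcr1* and *Mcm3* the difference was not called, with interaction adjusted p of 0.559 and 0.992 (edgeR). *Il6* was at 0 in each WT baseline library, so its interaction says nothing. Its mean after IR was 1.38 FPKM in Tet2-/- and 0.0533 FPKM in WT. Of 41 cell cycle genes 1 was called different and of 19 lymphocyte genes 0. *Tet2* itself had −2.52 here and −0.49 in WT (interaction adjusted p = 0.0285, edgeR).

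**Figure D5:**
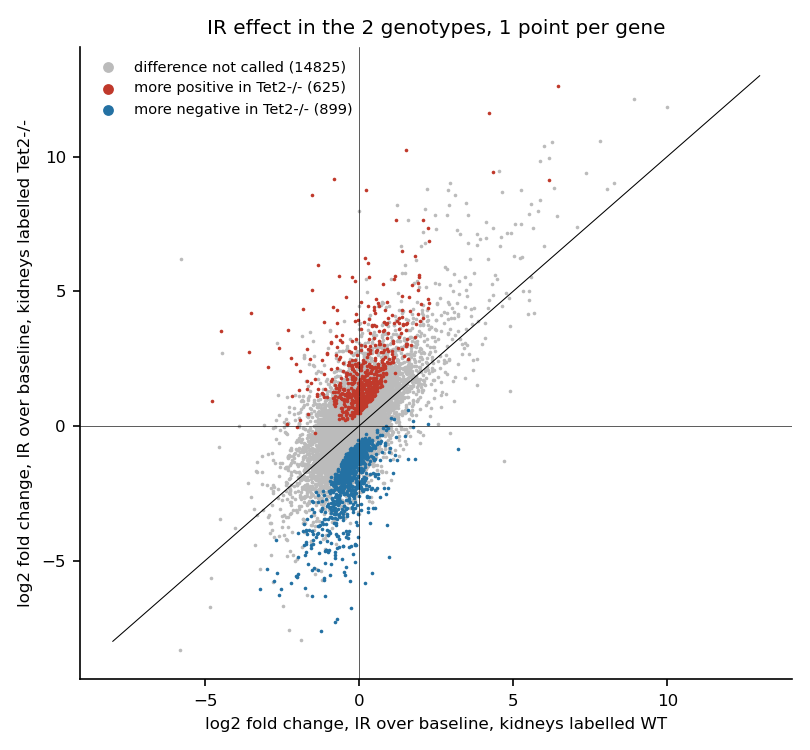
Log2 fold change, IR over baseline, of each gene in the kidneys labelled WT (from the fit of all 12 libraries) and in those labelled Tet2-/-; red and blue mark genes whose IR effect was called more positive or more negative in Tet2-/-, and the line marks equal effects. Of all 902 genes called more negative 718 were also called lower in Tet2-/-, and of all 634 called more positive 483 were called higher. Only genes tested in both fits are drawn, so the coloured points are fewer than these totals.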

How the data were processed

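Whole-kidney total RNA was sequenced in 12 libraries, 3 for each of 4 groups. STAR (to mm9) and HOMER (over RefSeq) were the authors' aligner and counter, and their deposited tables hold expected counts per transcript, some of them fractions in steps of 0.5, and FPKM values. Parameters of these tools are not given in the sources used here. Nothing in the sources says that reads were counted by strand, so overlapping and antisense genes may share reads.

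For each symbol the transcript with the highest total count over the 12 libraries was kept (24421 symbols of 34600 transcripts). Deposited counts were rounded and tested with edgeR 4.0.16 in R 4.3.3 (filterByExpr, TMM, glmQLFit and glmQLFTest, Benjamini-Hochberg) in the 6 Tet2-/- libraries. Calls needed an adjusted p under 0.05 plus a log2 change of over 1 either way. The genotype by IR interaction was fitted on all 12 libraries and called at an adjusted p under 0.05. FPKM served for levels. Alternatives were DESeq2 1.42.0, other scalings, filters and limits, all 12 libraries in 1 fit, limma 3.58.1 on log2(FPKM + 1) and log2(FPKM + 0.1), a replicate block, and leaving out each Tet2-/- library. The edgeR script was tested on simulated counts. With Python 3.11.15 (figures by matplotlib 3.10.9), the 250 bases before each transcript start were read from mm9, and transcripts were cut into 50-base stretches to find those shared with other genes.

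The members and the 40 gene lists were chosen with earlier results of these data known. Named by rule were the TET genes, the 12 largest changes in each direction (called, 1 FPKM or more as the mean of a group, no overlap), up to 6 most abundant and 6 most changed called members of each list, genes the study names, and interaction calls among these. Some genes and a sequence that the rule names are not reported here. A further 51 of the 223 genes named fall outside the rule and were chosen after their values were seen. They include *A2m*, *Adgre1*, *Arntl*, *Asns*, *C3*, *Cbs*, *Ccl28*, *Cd44* and *Cdh5*. Others are *Cdk1*, *Col3a1*, *Cpt1a*, *Csf1*, *Ctsd*, *Cubn*, *Cxcl11*, *Cxcl9* and *Fos*. So are *Gclc*, *Gdf15*, *Gldc*, *Gpx3*, *Haao*, *Il11*, *Inmt*, *Itgb6* and *Kmo*. The rest include *Krt18*, *Krt19*, *Krt7*, *Lrp2*, *Ltf*, *Mki67*, *Myc*, *Napsa* and *Ndufs5*. Also *Npas2*, *Nphs1*, *Nqo1*, *Nr4a1*, *Pecam1*, *Plin2*, *Ppara*, *Slc22a6* and *Slc2a5* are among them. Also *Slc5a2*, *Socs3*, *Sox9*, *Sprr1a*, *Ttc36* and *Vcam1* are among them.

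Same-numbered baseline and IR libraries deviated together from their group means (correlations 0.13, 0.36 and 0.22, against −0.27 to 0.06 for other pairs), though the study's methods describe different mice. This pairing comes from the values alone. P-values measure the spread between 3 libraries a group, in which an exact permutation test of 1 gene cannot go below 0.1. Depth per library, 52881800 to 107970000 counts in the 6 libraries over the 1 transcript kept per symbol, sets the counting error, and low genes are the least precise.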

Additional observations from a re-analysis of the deposited data

Results flagged for a closer look

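The IR effect differed between the kidneys labelled Tet2-/- and WT for 1536 genes (interaction term, edgeR, adjusted p under 0.05), and 89 of the genes named above are among them. Values are the interaction on the log2 scale, the Tet2-/- effect minus the WT effect. More positive in Tet2-/- were *Hp* (10.16), *Saa3* (8.7), *Sprr2f* (7.43), *Cidec* (7.32), *Krt20* (6.18), *Chil3* (5.61), *Il1r2* (5.25), *Sprr2g* (5.11), *Tnc* (4.61) and *Serpina3n* (4.55). So were *S100a8* (3.7), *Ccl6* (3.7), *Hk2* (3.68), *Sele* (3.58), *Pdk4* (3.46), *Plat* (3.42), *S100a9* (3.41), *S100a6* (3.23), *Lcn2* (2.99) and *Cldn4* (2.96). Also more positive were *Slc7a11* (2.95), *Krt19* (2.9), *Runx1* (2.82), *Cd44* (2.68), *Ctgf* (2.59), *Eda2r* (2.57), *Cd14* (2.35), *Psat1* (2.34), *Thbd* (2.34) and *Mt2* (2.29). Also more positive were *Klf6* (2.21), *Synpo* (2.09), *Srxn1* (2.0), *Cldn1* (2.0), *Krt18* (1.89), *Mt1* (1.78), *Adm* (1.77), *Ctsd* (1.43), *Ddx21* (1.11) and *Tjp1* (1.11). The *Hp* and *Cidec* values rest in part on IR replicate 3, which had the highest adipocyte sum. Without it the Tet2-/- effect was 4.28 in place of 8.57 for *Hp* and 4.5 in place of 5.96 for *Cidec*, and the interaction without it is not given here. On the WT side, adipocyte sums were 60.4, 146.5 and 295.6 FPKM in the baseline and 74.8, 52.9 and 17.0 FPKM in the IR libraries. Mean WT levels at baseline and after IR were 4.27 and 1.78 FPKM for *Cidec* and 3.99 and 1.45 FPKM for *Hp*. More negative were *A4gnt* (−6.46), *Higd1c* (−5.43), *Serpina6* (−5.05), *Uroc1* (−4.88), *Mep1b* (−4.74), *Mettl7a2* (−4.57), *Sox2ot* (−4.47), *Ido2* (−4.23), *BC024386* (−4.19) and *Cyp7b1* (−3.79). So too were *Erich6b* (−3.58), *Slc7a13* (−3.49), *Slc2a5* (−3.4), *Slc22a7* (−3.4), *Col6a6* (−2.95), *Ttc36* (−2.9), *Smcp* (−2.81), *Ppp1r1b* (−2.7), *Napsa* (−2.61) and *Slc4a1* (−2.58). Also more negative were *Cxcl12* (−2.46), *Cyp51* (−2.37), *Ccl28* (−2.35), *Eci3* (−2.34), *Aqp1* (−2.28), *Acadm* (−2.2), *Haao* (−2.19), *Tet2* (−2.0), *Ciart* (−1.97) and *Bdh1* (−1.9). Also more negative were *Khk* (−1.88), *Mep1a* (−1.83), *Slc34a1* (−1.81), *Cbs* (−1.81), *Acy3* (−1.77), *Dbp* (−1.73), *Slc22a12* (−1.69), *Cubn* (−1.66), *Cldn10* (−1.6) and *Lrp2* (−1.59). Also more negative were *Herpud1* (−1.55), *Per3* (−1.48), *Fbp1* (−1.33), *Ggt1* (−1.11), *Vegfa* (−1.09), *Esrra* (−1.03), *Sdhb* (−0.96), *Dnaja1* (−0.94) and *Idh2* (−0.74). Since the named genes were picked mostly for their change in the Tet2-/- libraries, which the interaction shares, their direction here is no independent evidence. Replicate groups of 3 were too small for a test of single libraries, and explanations were not tested.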

How the results depend on the processing

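With the adjusted p alone, 3741 genes were higher and 3313 lower, against 2078 and 1896 with the fold limit. With limma on log2(FPKM + 1) 816 were lower, and with a pseudocount of 0.1, 1260, and the first shared 50.8% of the genes called by edgeR. Leaving out 1 library gave 1647 to 2289 higher and 1607 to 2034 lower genes, and a *Tet2* log2 fold change of −2.69 to −2.23. DESeq2 called 2094 higher and 1979 lower genes, which include 96.5% of the edgeR calls. For the genotype comparison DESeq2 called 2810 genes, and leaving out 1 library 697 to 1741. With the replicate block 2137 were higher and 2056 lower, *Tet2* had −2.50 and 2101 genes differed by genotype. The block lost 0 of the 188 called genes named above, and called *Lyz2* (log2 fold change 1.37).

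Of those 188, 163 kept their call in all 15 alternatives, 25 lost it in at least 1 and 0 reversed. With limma on log2(FPKM + 1), *A2m*, *Arntl*, *Cd2*, *Cd8a*, *Cdk1*, *Cxcl9*, *Dnmt3l*, *Eda2r*, *Nkg7*, *Npas2*, *Saa2*, *Sele*, *Selp* and *Tnf* lost the call. *Cxcl11*, *Cyp2a4*, *Esrra*, *Hp*, *Kap* and *Nphs1* lost it there too. With log2(FPKM + 0.1) *Cxcl11*, *Esrra*, *Kap* and *Tnf* did. Of the 35 not called, 10 were called with the same sign in at least 1 alternative, *Krt7* in 4 and *Tjp1* in 3, and 11 changed sign in at least 1 alternative. *Adgre1* (0.37) was −0.83 to 1.28 without 1 library (sign changed without IR replicate 2). *Aqp2* (−0.21) was −0.44 to 0.19 without 1 library (sign changed without baseline replicate 1), 0.015 with library sizes alone, 0.12 with limma on log2(FPKM + 1) and 0.12 with limma on log2(FPKM + 0.1). *C1qa* (0.1) was −0.55 to 0.53 without 1 library (sign changed without baseline replicate 1, without baseline replicate 3 and without IR replicate 2) and −0.027 with the replicate block. *Col3a1* (0.37) was −0.67 to 0.82 without 1 library (sign changed without IR replicate 2). *Ltf* (0.21) was −0.45 to 0.65 without 1 library (sign changed without baseline replicate 1 and without IR replicate 2). *Lyz2* (2.05) was −0.13 to 3.15 without 1 library (sign changed without IR replicate 2). *Mki67* (0.39) was −0.52 to 0.76 without 1 library (sign changed without IR replicate 2). *Ndufs5* (1.37) was −1.04 to 1.88 without 1 library (sign changed without IR replicate 3, where it was called lower). *Slc22a6* (−0.26) was −0.84 to 0.020 without 1 library (sign changed without IR replicate 2). *Slc6a18* (−0.13) was 0.098 with library sizes alone, 0.13 with limma on log2(FPKM + 1) and 0.13 with limma on log2(FPKM + 0.1). *Umod* (0.33) was −0.042 to 0.79 without 1 library (sign changed without IR replicate 2). These causes were not tested, apart from the smaller number of samples in the fits that leave 1 out. No alternative left out a WT library. Depth limits genes with few baseline counts, whose fold changes depend on the prior count, and the 3 libraries a group limit the rest.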

Other observations

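The levels of some genes whose mean FPKM differed most between the groups are in no paragraph above. *Fth1* is named by rule, and the others were chosen after their values were seen. *Fth1*, the ferritin heavy chain, was at 3809, 3198 and 4117 FPKM before and 7214, 6714 and 8858 FPKM after IR (log2 fold change 0.79, adjusted p = 0.0639, edgeR). *Gpx3*, the plasma glutathione peroxidase made in the proximal tubule, was at 7034, 5006 and 6818 FPKM before and 7857, 8995 and 15948 FPKM after IR (log2 fold change 0.56, adjusted p = 0.317, edgeR). The lysosomal protease *Ctsd* was at 180.2, 209.8 and 225 FPKM before and 1199, 1298 and 744 FPKM after IR (log2 fold change 2.12, adjusted p = 0.000682, edgeR). On the falling side, *Ttc36* was at 1496, 1111 and 1298 FPKM before and 79.3, 40.4 and 62.1 FPKM after IR (log2 fold change −4.67, adjusted p = 0.00013, edgeR), and the methyltransferase *Inmt* at 860.2, 1050.4 and 1404 FPKM before and 111, 46.5 and 67.3 FPKM after IR (log2 fold change −4.13, adjusted p = 0.000376, edgeR).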
